A study of Homo sapiens with 9 samples.

Results

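The RNA levels of 10 genes of the NRF2 antioxidant pathway were followed in SKOV3 cells, an established human ovarian cancer line, expressing either wild-type (WT) CDK9 or Tyr19Phe CDK9. The genes were chosen by name, from their known place in the pathway: NFE2L2 and KEAP1, which encode the transcription factor NRF2 and the protein that restrains it; NQO1 and HMOX1, enzymes of quinone and heme metabolism; GCLC and GCLM, which make glutathione; and TXNRD1, TXN, SRXN1 and PRDX1 of the thioredoxin system. The choice was made with earlier results of these data known. All 10 of these, out of 58735 genes listed in the deposited count table, passed the filter on low counts, as did 16350 genes in all. There were 3 libraries in each of 3 groups: WT CDK9 cells under basal conditions, WT CDK9 cells treated with an ALK inhibitor for 24 h, and Tyr19Phe CDK9 cells under basal conditions. CDK9 is the kinase of the elongation factor P-TEFb, and the Tyr19Phe form carries phenylalanine at the tyrosine that the study describes as phosphorylated by ALK. For other assays the study describes stable lines in which WT or Tyr19Phe CDK9 was put back into cells depleted of endogenous CDK9 by shRNA. Whether the sequenced cells carried that depletion is not given in the sources used here. The sources used here name neither the inhibitor and its dose in this experiment nor how many clones a line represents. An effect of the substitution and any other difference between the cells expressing each form cannot be told apart.

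NRF2 is a transcription factor that is made continuously and destroyed almost as fast. KEAP1 binds it and presents it for ubiquitination until oxidants or electrophiles modify cysteines of KEAP1, after which NRF2 reaches the nucleus, pairs with small MAF proteins and binds antioxidant response elements near its target genes. This control acts on the NRF2 protein, which RNA sequencing does not measure, so the NFE2L2 transcript and the transcripts of its targets are given here as separate readings. Cancer cells often carry a raised NRF2 program, and its enzymes and efflux pumps are known for lowering the response to platinum drugs and other electrophilic agents.

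The Tyr19Phe CDK9 libraries were the deepest, at 26485891 to 29320184 counts each, against 18939449 to 19731228 for WT CDK9 and 18169050 to 20974903 for the inhibitor-treated group. Levels are given in CPM, counts scaled to 1000000 per library after TMM normalisation, whose factors lay between 0.986 and 1.01. ALK inhibitor replicate 2 and Tyr19Phe replicate 3 had the fewest genes with a count, 19944 and 20635, against 21241 to 22744 in the other libraries. Of 8 epithelial markers, KRT8, KRT18, KRT19, PAX8 and ERBB2 had at least 99.9 CPM in every library, EPCAM had 9.72 to 23.0 CPM, MUC1 had 10.5 to 19.5 CPM, and the epithelial cadherin CDH1 was near absent with at most 0.897 CPM. Their sum was 3710 to 3840 CPM in WT CDK9, 4640 to 4680 CPM in inhibitor-treated and 3620 to 3830 CPM in Tyr19Phe CDK9 cells. Mean levels of ERBB2 were 1800, 2630 and 1470 CPM in these groups, those of KRT19 were 246, 284 and 104 CPM, and those of EPCAM were 21.2, 20.9 and 12.0 CPM, and the part of these shifts in the results was not tested. Summed markers of leukocytes, endothelium, fibroblasts and erythroid cells reached at most 1.39 CPM, and HBA1 was at 0 in every library. The endothelial markers summed to between 1.05 and 1.39 CPM in Tyr19Phe CDK9 cells and to between 0.0475 and 0.641 CPM in the other libraries. CDK9 itself was not called different from WT CDK9 cells in either group (adjusted p = 0.665 with the ALK inhibitor and 0.106 with Tyr19Phe CDK9 by edgeR's quasi-likelihood test), but in the direct contrast it was 1.21-fold higher in Tyr19Phe CDK9 than in inhibitor-treated cells (log2 fold change 0.27, adjusted p = 0.00961), and none of the 3 groups overlapped. CDK9 counts do not separate an introduced from the endogenous transcript. In bulk libraries such as these, fewer cells expressing a gene and less RNA per cell cannot be told apart. The labels do not say whether the libraries of a group came from separate cultures, so the p-values measure the spread between these libraries only.

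Per kilobase of transcript, the members spanned a wide range of levels in WT CDK9 cells. PRDX1, an abundant peroxiredoxin, stood highest with a mean of 421 CPM per kb. It was followed by its electron donor TXN with 216, NQO1 with 137 and TXNRD1 with 103 CPM per kb. KEAP1 at 23.4 and NFE2L2 at 16.7 lay well below these effectors, close to GCLM at 15.3 CPM per kb. GCLC at 7.58, HMOX1 at 5.07 and SRXN1 at 4.46 CPM per kb were the least abundant. Neighbours in this order overlapped in their WT CDK9 libraries only for NFE2L2 with GCLM and for HMOX1 with SRXN1. In Tyr19Phe CDK9 cells HMOX1 rose past GCLC, with 10.6 against 6.88 CPM per kb, and GCLM stood above NFE2L2, with 17.1 against 14.9 CPM per kb.

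NRF2 acts through the antioxidant response element, whose core letters are TGACNNNGC. These letters were searched on both strands around RefSeq transcription starts, which were at hand for 8 of the 10 genes (GRCh38.p14, 11 starts). The set of starts used here held none for HMOX1 and PRDX1, so these 2 genes were not searched. From 250 bases before to 50 bases after a start they were found at 4 of these 11 starts, which belong to KEAP1, GCLM and TXNRD1, and at 13.3% of all 35116 listed starts. When the search began 1000 bases before the start, they were found at 7 of the 11, with NQO1, GCLC and TXN added, and at 33.7% of all starts. The stricter letters TGACTCAGC, a special case of the first pattern, were found at 1 of the 11 starts, that of NQO1, and at 1.53% of all starts in the longer window. A match of letters is a description, not a site of binding. Stretches of NQO1, TXNRD1, GCLM and KEAP1 are shown with 10 bases on either side of the match, which is in capitals. They are written 5′ to 3′ on the strand named.

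NQO1: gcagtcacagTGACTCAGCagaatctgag
TXNRD1: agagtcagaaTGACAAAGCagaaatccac
GCLM: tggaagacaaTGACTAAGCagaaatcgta
KEAP1: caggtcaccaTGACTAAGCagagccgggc

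The NQO1 stretch (hg38, chr16:69726997-69727025, minus strand) begins its match 455 bases upstream of the start and lay outside all 7 annotated NQO1 transcripts (GENCODE release 44). That of TXNRD1 (chr12:104286920-104286948, minus strand, opposite to the gene) lay 102 bases upstream of the second listed start, in a noncoding part of an exon of 3 transcripts and in an intron of 2. The GCLM match (chr1:93909446-93909474, plus strand, opposite to the gene) lay 34 bases upstream and touched an exon of 1 transcript. The KEAP1 match (chr19:10502784-10502812, plus strand, opposite to the gene) lay 31 bases upstream of 1 of its starts, in an exon of 1 transcript and an intron of 3. GCLM and KEAP1 held the same core, TGACTAAGC. KEAP1 and TXNRD1 had further matches that are not shown.

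**Figure D1:**
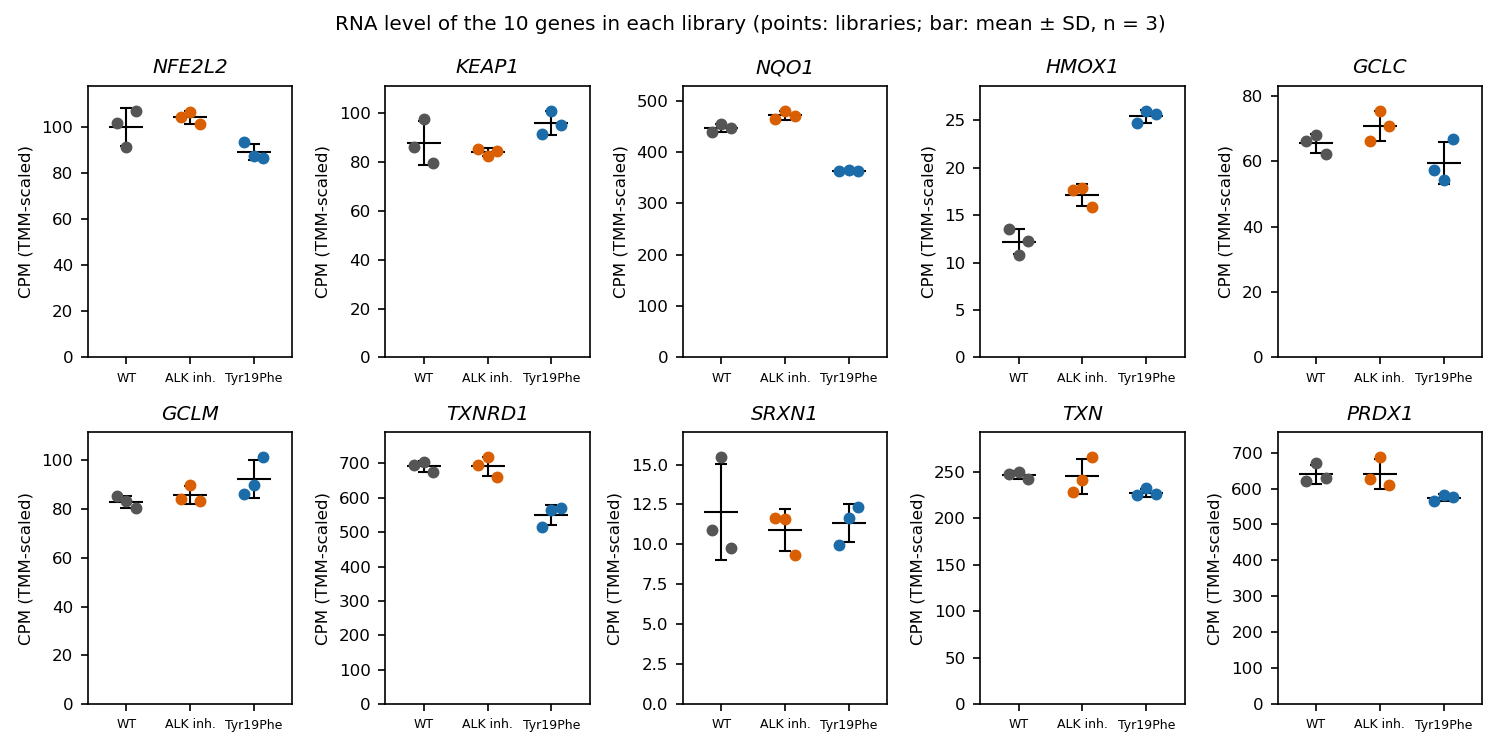
RNA level of each of the 10 genes in CPM (vertical axis from 0, its scale set for each gene) in the WT CDK9, ALK inhibitor-treated WT CDK9 and Tyr19Phe CDK9 libraries. Points are libraries and bars are the mean ± SD (n = 3). HMOX1 rose from a mean of 12.2 to 17.1 and 25.4 CPM across the 3 groups without overlap, while NQO1 and TXNRD1 were lowest in Tyr19Phe CDK9 cells.

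Neither of the 2 regulators passed the test against WT CDK9 cells. NFE2L2 (ENSG00000116044, hg38 chromosome 2 from 177227595 to 177392697, minus strand) had 102, 91.1 and 107 CPM in the WT CDK9 libraries, 104, 106 and 101 CPM with the ALK inhibitor and 93.2, 87.4 and 86.4 CPM in Tyr19Phe CDK9 cells. The Tyr19Phe CDK9 libraries lay below those of the inhibitor-treated cells and overlapped the WT CDK9 libraries through WT replicate 2. Relative to WT CDK9 cells the log2 fold change of NFE2L2 was 0.06 with the inhibitor (SE 0.062, adjusted p = 0.757 by edgeR's quasi-likelihood test) and -0.17 with Tyr19Phe CDK9 (SE 0.0616, adjusted p = 0.0586). The second value was called lower without WT replicate 2 (adjusted p = 0.0144) or without Tyr19Phe replicate 1 (adjusted p = 0.0489). In the direct contrast with inhibitor-treated cells, NFE2L2 decreased by 14.4% in Tyr19Phe CDK9 cells (log2 fold change -0.22, SE 0.0614, adjusted p = 0.00782), and the call held in all 20 alternative fits.

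KEAP1 (ENSG00000079999, chromosome 19 from 10486120 to 10503741, minus strand), the adaptor that brings NRF2 to the CUL3 ubiquitin ligase, had 86.4, 97.5 and 79.8 CPM in WT CDK9 cells, 85.5, 82.4 and 84.6 CPM with the inhibitor and 91.5, 101 and 95.2 CPM in Tyr19Phe CDK9 cells. WT replicate 2, the lowest WT library for NFE2L2, was the highest for KEAP1. Of the transcripts, NFE2L2 has a GC content of 40.5% and KEAP1 one of 60.8%, on either side of the median of 47.8% over the tested genes. Neither comparison with WT CDK9 cells was called for KEAP1 (log2 fold change -0.06, SE 0.067, adjusted p = 0.76 with the inhibitor and 0.13, SE 0.0659, adjusted p = 0.207 with Tyr19Phe CDK9 by edgeR's quasi-likelihood test). Without WT replicate 2 the Tyr19Phe CDK9 value was called (0.21, adjusted p = 0.0332). Against inhibitor-treated cells KEAP1 was called 1.14-fold higher in Tyr19Phe CDK9 cells (log2 fold change 0.19, SE 0.0659, adjusted p = 0.0395). That call was lost when a trend with GC content and gene length was removed from each library (adjusted p = 0.0674), and in 6 of the 9 fits that left out 1 library, namely WT replicate 1, each inhibitor replicate, and Tyr19Phe replicates 2 and 3 (adjusted p up to 0.179).

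Among the enzymes, HMOX1 was the member with the largest change. In Tyr19Phe CDK9 cells it moved in the direction opposite to NQO1 and TXNRD1. HMOX1 (ENSG00000100292, chromosome 22 from 35380361 to 35394214, plus strand) encodes heme oxygenase, which opens the heme ring to biliverdin, carbon monoxide and free iron. It had 13.5, 10.8 and 12.3 CPM in WT CDK9 cells, 17.7, 17.9 and 15.8 CPM with the ALK inhibitor and 24.7, 26.0 and 25.6 CPM in Tyr19Phe CDK9 cells. The 3 groups did not overlap, with the inhibitor-treated cells between the other 2. HMOX1 rose 2.08-fold in Tyr19Phe CDK9 cells (log2 fold change 1.06, SE 0.12, 95% interval 0.81 to 1.30, adjusted p = 5.49e-08 by edgeR's quasi-likelihood test), a call kept in all 20 alternative fits. With the inhibitor it rose 1.40-fold (log2 fold change 0.49, SE 0.124, 95% interval 0.24 to 0.74, adjusted p = 0.0144). This call was lost without WT replicate 2 (adjusted p = 0.0992), without inhibitor replicate 1 (adjusted p = 0.0617) or without inhibitor replicate 2 (adjusted p = 0.0577). The direct contrast placed HMOX1 1.49-fold higher in Tyr19Phe CDK9 than in inhibitor-treated cells (log2 fold change 0.57, SE 0.117, adjusted p = 4.68e-04).

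NQO1 (ENSG00000181019, chromosome 16 from 69706996 to 69726951, minus strand) encodes a quinone reductase whose transcript is widely used as a marker of NRF2 activity. It had 439, 455 and 447 CPM in WT CDK9 cells, 464, 481 and 471 CPM with the inhibitor and 362, 365 and 364 CPM in Tyr19Phe CDK9 cells. The groups did not overlap, with the Tyr19Phe CDK9 libraries lowest and the inhibitor-treated ones highest. In Tyr19Phe CDK9 cells NQO1 decreased by 18.6% (log2 fold change -0.30, SE 0.0371, adjusted p = 3.09e-07 by edgeR's quasi-likelihood test) and, against the inhibitor-treated cells, decreased by 22.9% (-0.37, SE 0.0371, adjusted p = 2.89e-09). Both calls held in all 20 alternative fits. The value with the inhibitor, 0.08 (SE 0.0372, 95% interval 0.00 to 0.15, adjusted p = 0.321), did not pass the test although the libraries did not overlap.

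**Figure D2:**
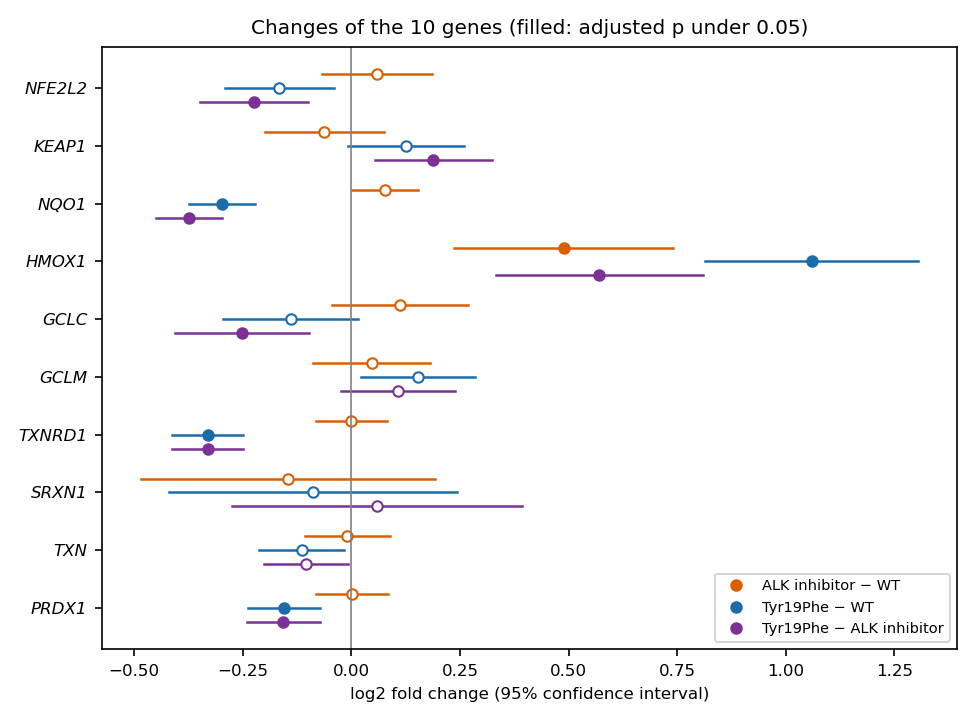
Log2 fold change (horizontal axis) of each gene with its 95% confidence interval from the fit of all 9 libraries, in the ALK inhibitor minus WT CDK9, Tyr19Phe CDK9 minus WT CDK9 and Tyr19Phe CDK9 minus ALK inhibitor comparisons. Filled points passed an adjusted p of 0.05; HMOX1 lies to the right in each comparison, and NQO1, TXNRD1 and PRDX1 lie to the left in both comparisons that involve Tyr19Phe CDK9.

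GCLC and GCLM encode the catalytic and modifier subunits of glutamate-cysteine ligase, which carries out the limiting step of glutathione synthesis. GCLC (ENSG00000001084, chromosome 6 from 53497341 to 53616970, minus strand) had 66.3, 68.0 and 62.2 CPM in WT CDK9 cells, 66.2, 75.5 and 70.9 CPM with the inhibitor and 57.4, 54.3 and 66.8 CPM in Tyr19Phe CDK9 cells. GCLM (ENSG00000023909, chromosome 1 from 93885205 to 93909456, minus strand) had 85.5, 83.3 and 80.4 CPM, 84.1, 90.1 and 83.2 CPM, and 86.1, 89.8 and 101 CPM in the same order of groups. Neither subunit passed the test in Tyr19Phe CDK9 cells, where GCLC had a log2 fold change of -0.14 (SE 0.0763, adjusted p = 0.231 by edgeR's quasi-likelihood test) and GCLM one of 0.15 (SE 0.0647, adjusted p = 0.103). For GCLM the Tyr19Phe CDK9 libraries all lay above the WT CDK9 libraries. The GCLM value was called with scaling by library size alone (adjusted p = 0.0489), with the trend of GC content and length removed (adjusted p = 0.0445) and without Tyr19Phe replicate 1 (adjusted p = 0.0476). With the inhibitor the changes were 0.11 for GCLC (SE 0.0768, adjusted p = 0.562) and 0.05 for GCLM (SE 0.0658, adjusted p = 0.836). The direct contrast called GCLC lower in Tyr19Phe CDK9 than in inhibitor-treated cells (log2 fold change -0.25, SE 0.0759, adjusted p = 0.0161). The libraries of these groups overlapped for GCLC, and the call was lost without inhibitor replicate 2 or 3 or Tyr19Phe replicate 1 or 2 (adjusted p up to 0.122). GCLM was not called there (0.11, SE 0.0646, adjusted p = 0.269).

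In the thioredoxin system, TXNRD1 carried the largest decrease of the members against WT CDK9 cells. TXNRD1 (ENSG00000198431, chromosome 12 from 104215779 to 104350305, plus strand), the selenoenzyme that returns electrons from NADPH to thioredoxin in the cytosol, had 696, 705 and 674 CPM in WT CDK9 cells, 695, 718 and 662 CPM with the inhibitor and 516, 565 and 570 CPM in Tyr19Phe CDK9 cells. The Tyr19Phe CDK9 libraries lay below all others, and the WT CDK9 and inhibitor-treated libraries overlapped. TXNRD1 decreased by 20.5% in Tyr19Phe CDK9 cells (log2 fold change -0.33, SE 0.04, adjusted p = 1.80e-07 by edgeR's quasi-likelihood test), and the difference from inhibitor-treated cells was of the same size (-0.33, SE 0.04, adjusted p = 1.46e-07). All 20 alternative fits kept both calls. With the inhibitor the log2 fold change of TXNRD1 was 0.00 with a 95% interval of -0.08 to 0.08. The gene body of TXNRD1 holds the pseudogene RPL18AP3 on the same strand, to which 6995 counts were assigned over the 9 libraries against 126282 for TXNRD1.

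PRDX1 (ENSG00000117450, chromosome 1 from 45511036 to 45523047, minus strand), a peroxiredoxin that reduces hydrogen peroxide with electrons from thioredoxin, had 622, 670 and 628 CPM in WT CDK9 cells, 626, 687 and 609 CPM with the inhibitor and 566, 583 and 575 CPM in Tyr19Phe CDK9 cells. The Tyr19Phe CDK9 libraries lay below all others. PRDX1 decreased by 10.2% in Tyr19Phe CDK9 cells (log2 fold change -0.16, SE 0.0409, adjusted p = 0.00624 by edgeR's quasi-likelihood test), a call lost without WT replicate 2 (adjusted p = 0.0567). The direct contrast gave a decrease of 10.3% (-0.16, SE 0.0409, adjusted p = 0.00535), lost without inhibitor replicate 2 (adjusted p = 0.0984). With the inhibitor the log2 fold change was 0.00 with a 95% interval of -0.08 to 0.08. PRDX1 overlaps MMACHC on the other strand over 19.5% of its span, where MMACHC had 1469 counts in all libraries and PRDX1 122415.

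TXN (ENSG00000136810, chromosome 9 from 110243811 to 110256640, minus strand), thioredoxin itself, had 248, 250 and 242 CPM in WT CDK9 cells, 228, 241 and 266 CPM with the inhibitor and 225, 233 and 226 CPM in Tyr19Phe CDK9 cells. The Tyr19Phe CDK9 libraries were below the WT CDK9 libraries and overlapped the inhibitor-treated ones. Its log2 fold change of -0.11 with Tyr19Phe CDK9 did not pass the test (SE 0.0476, adjusted p = 0.0974 by edgeR's quasi-likelihood test), and it was -0.01 with the inhibitor (SE 0.0479, adjusted p = 0.964). In the direct contrast TXN was not called (-0.11, SE 0.0476, adjusted p = 0.122) but was called without inhibitor replicate 1 (-0.15, adjusted p = 0.0344) and with the trend of GC content and length removed under a replicate block (-0.12, adjusted p = 0.04). SRXN1 (ENSG00000271303, chromosome 20 from 646615 to 653370, minus strand), sulfiredoxin, which repairs overoxidized peroxiredoxins, was the least abundant member and the most variable. It had 10.9, 15.5 and 9.78 CPM in WT CDK9 cells, 11.7, 11.6 and 9.35 CPM with the inhibitor and 9.99, 11.7 and 12.3 CPM in Tyr19Phe CDK9 cells, with all groups overlapping. Its 95% intervals, from -0.49 to 0.19 with the inhibitor and from -0.42 to 0.24 with Tyr19Phe CDK9, leave room for changes as large as those of TXNRD1. A second entry, AL121758.1, covers 99.8% of the SRXN1 span on the same strand and had 29 counts in all libraries against 2276 for SRXN1. How reads that fall in both entries were counted was not examined, so the level of SRXN1 may be understated.

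By count, 1 of the 10 members was called higher and 0 lower with the ALK inhibitor, where 1.82% of all tested genes were called higher and 2.73% lower by edgeR's quasi-likelihood test at an adjusted p under 0.05. Their median log2 fold change was 0.02, beside -0.0010 for all tested genes. In Tyr19Phe CDK9 cells 1 member was called higher (HMOX1) and 3 lower (NQO1, TXNRD1 and PRDX1), where 7.61% and 10.4% of all tested genes were called in these directions. The members' median was -0.13 beside 0.0035 for all tested genes. In the direct contrast of Tyr19Phe CDK9 with inhibitor-treated cells 2 were called higher and 5 lower, where the background was 9.57% and 11.1%, and the median was -0.13. Without inhibitor replicate 2 the number called lower there was 3. The comparisons with WT CDK9 share its 3 libraries, and the direct contrast shares libraries with both. The 10 genes were chosen for what they do and with earlier results of these data known. These counts describe the members and were not tested as a list.

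The change of HMOX1 stood beside a shift of its neighbourhood on chromosome 22. The 110 other tested genes within 5 Mb of HMOX1 showed a median change of 0.20 (log2) with Tyr19Phe CDK9. Of them 33 were called higher and 4 lower, beside 7.61% and 10.4% of all tested genes. The neighbourhoods of the other 9 members had medians between -0.08 (56 genes around NFE2L2) and 0.10 (99 genes around PRDX1). With the inhibitor the median around HMOX1 was -0.01. The value of HMOX1 itself in Tyr19Phe CDK9 cells, 1.06 with a 95% interval from 0.81, lay above the median of its neighbours, and their part in the result was not tested. NQO1, TXNRD1 and PRDX1 fell in neighbourhoods with medians of 0.04, -0.04 and 0.10.

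**Figure D3:**
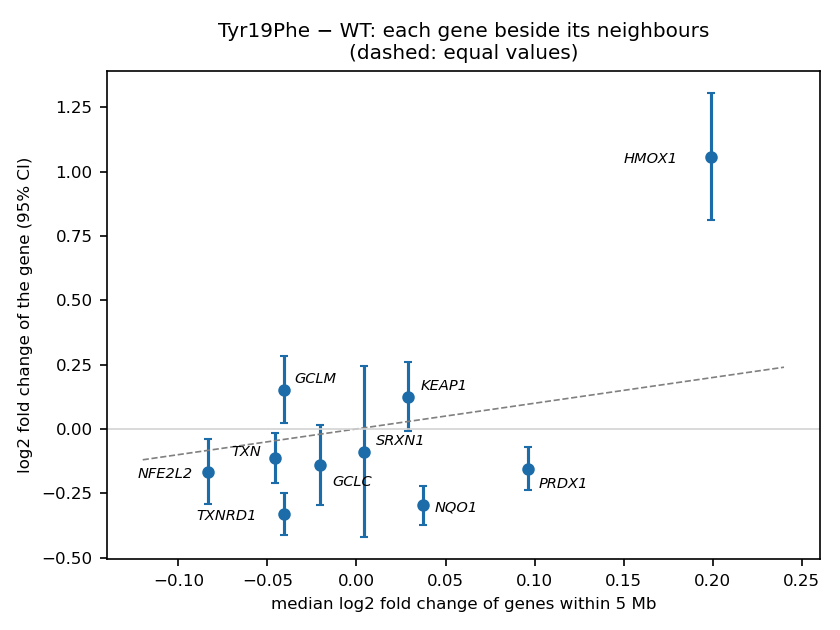
Log2 fold change of each member in Tyr19Phe CDK9 minus WT CDK9 cells with its 95% confidence interval (vertical axis) against the median log2 fold change of the other tested genes within 5 Mb (horizontal axis). The dashed line marks equal values. HMOX1 lies at 1.06 above a neighbourhood median of 0.20, and the medians around the other genes lie between -0.08 and 0.10.

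A further 154 genes of the pathway, listed by role, were read from the same fit, and 151 of them were tested. These lists were also written with earlier results of these data known, so their shares are a description and were not tested. With the ALK inhibitor 7 were called higher and 2 lower, which is 4.64% and 1.32% of those tested beside 1.82% and 2.73% of all tested genes. In Tyr19Phe CDK9 cells 9 were called higher and 36 lower, which is 5.96% and 23.8% beside 7.61% and 10.4%, with a median change of -0.05 (log2). Without WT replicate 1 or WT replicate 3 the number called higher fell to 4 and the number called lower to 27. Over all tested genes, 887 and 935 were called higher and 1293 and 1320 lower in these fits. The main fit called 1245 higher and 1695 lower. The direct contrast of Tyr19Phe CDK9 with inhibitor-treated cells called 12 higher and 29 lower, which is 7.95% and 19.2% beside 9.57% and 11.1%, and 7 higher without inhibitor replicate 1, inhibitor replicate 3 or Tyr19Phe replicate 2. The roles with the most calls in Tyr19Phe CDK9 cells were the quinone and carbonyl enzymes, with 10 of 23 lower (43.5%) and 1 higher, and the enzymes that supply NADPH, with 7 of 21 lower and 2 higher.

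**Figure D4:**
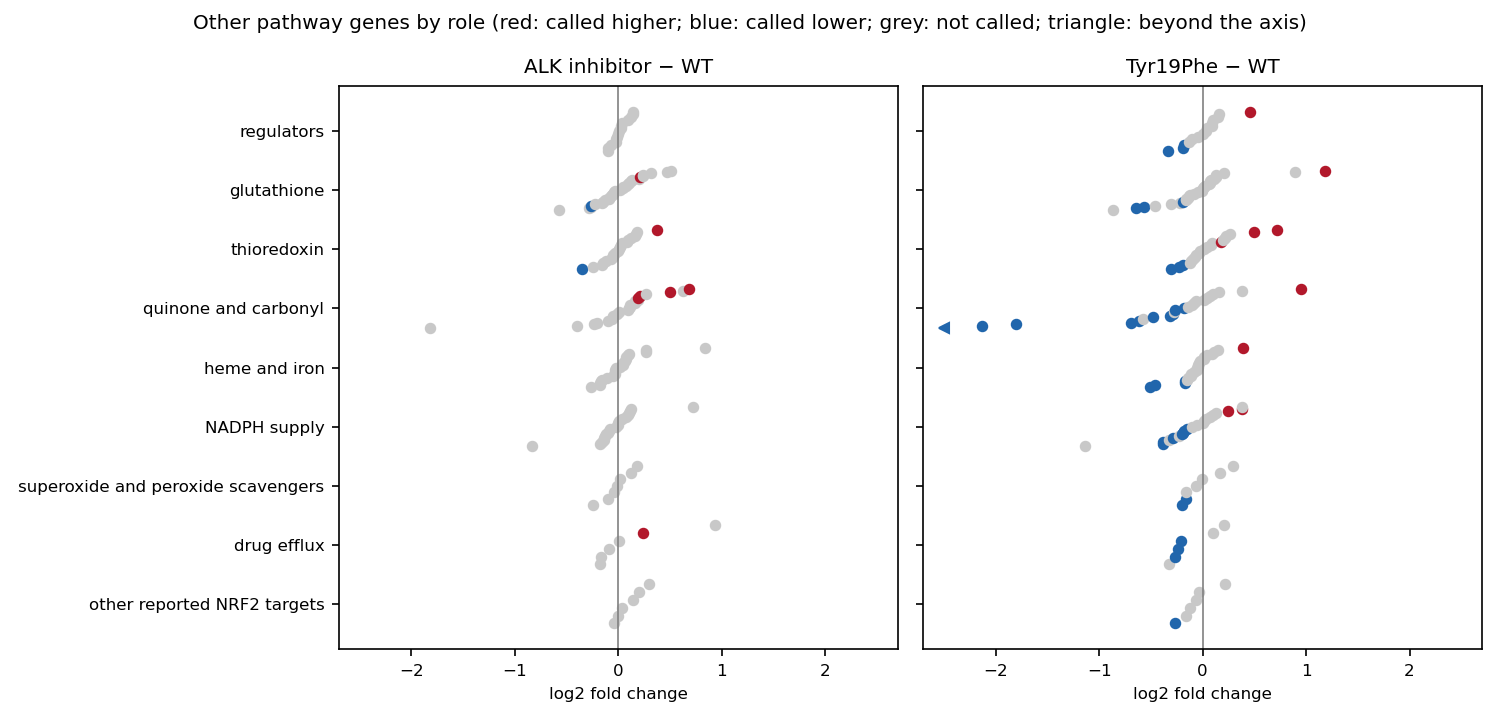
Log2 fold change (horizontal axis) of the 151 other tested pathway genes, grouped by role (vertical axis), with the ALK inhibitor (left) and with Tyr19Phe CDK9 (right), each against WT CDK9 cells. Each point is a gene, red where called higher, blue where called lower and grey where not called. With Tyr19Phe CDK9, 36 genes were called lower and 9 higher, which is 23.8% and 5.96% beside 10.4% and 7.61% of all tested genes. Among them were 10 called lower of 23 quinone and carbonyl enzymes.

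Of the 30 glutathione genes tested, 3 were called lower and 1 higher with Tyr19Phe CDK9, a share called lower near the 10.4% of all tested genes. With the inhibitor 1 was called in each direction, which is 3.33% each way beside 1.82% of all tested genes called higher and 2.73% lower. SLC7A11, the cystine carrier that feeds glutathione synthesis, had 474, 449 and 480 CPM in WT CDK9 cells, 548, 556 and 519 CPM with the inhibitor and 295, 313 and 292 CPM in Tyr19Phe CDK9 cells. It was thus highest with the inhibitor and lowest with Tyr19Phe CDK9, with no overlap among groups. SLC7A11 rose by 0.21 on the log2 scale with the inhibitor (SE 0.0407, adjusted p = 9.21e-04 by edgeR's quasi-likelihood test) and fell by 0.64 with Tyr19Phe CDK9 (SE 0.0409, adjusted p = 1.39e-13), and the direct contrast of the groups was -0.85 (SE 0.0409, adjusted p = 1.02e-16). Its partner chain SLC3A2 was called lower with the inhibitor (-0.26, SE 0.0439, adjusted p = 1.16e-04) and was not called with Tyr19Phe CDK9 (-0.12, SE 0.0438, adjusted p = 0.0503). In 8 of the 20 alternative fits SLC3A2 was called lower with Tyr19Phe CDK9, among them DESeq2 (adjusted p = 0.0454), the replicate block (adjusted p = 0.0108), the trend of GC content and length removed (adjusted p = 0.0122), and the fits without WT replicate 3, inhibitor replicate 3 or Tyr19Phe replicate 2 (adjusted p of 0.0199, 0.0464 and 0.036). GSR, which reduces oxidized glutathione, went from 123 ± 1.84 to 83.6 ± 2.26 CPM (SD, n = 3 each) with Tyr19Phe CDK9 and fell by 0.56 on the log2 scale (SE 0.0571, adjusted p = 6.58e-09). CHAC1, which degrades glutathione and is a target of the ATF4 stress response, rose from 3.58 ± 1.01 to 8.13 ± 1.18 CPM (SD, n = 3 each; log2 fold change 1.18, SE 0.224, adjusted p = 1.91e-04 by edgeR's quasi-likelihood test).

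Quinone and carbonyl enzymes were the role with the largest number of calls in both comparisons with WT CDK9 cells. With the inhibitor 4 of 23 were called higher (17.4%) and 0 lower, beside 1.82% and 2.73% of all tested genes. With Tyr19Phe CDK9, 43.5% were called lower and 4.35% higher, beside 10.4% and 7.61%. By share, the efflux pumps had more called lower there, with 3 of 6 (50%). AKR1C1 and AKR1C3, aldo-keto reductases that also act on steroids and prostaglandins, rose with the inhibitor by 0.69 (SE 0.0698, adjusted p = 1.77e-08 by edgeR's quasi-likelihood test) and 0.50 on the log2 scale (SE 0.0553, adjusted p = 8.09e-08). In Tyr19Phe CDK9 cells they were called lower, by -0.27 (SE 0.0705, adjusted p = 0.00586) and -0.29 (SE 0.0555, adjusted p = 2.71e-04). The AKR1C1 call was lost without WT replicate 1 (adjusted p = 0.0651). These genes and AKR1C2 are related copies, so reads may be divided uncertainly among them. UGDH, which makes the UDP-glucuronate used to conjugate drugs, had 285 ± 6.32 CPM in WT CDK9 cells, 330 ± 11.9 CPM with the inhibitor and 185 ± 10.8 CPM in Tyr19Phe CDK9 cells (SD, n = 3 each). Its log2 fold changes were 0.21 with the inhibitor (SE 0.0453, adjusted p = 0.00285 by edgeR's quasi-likelihood test) and -0.62 with Tyr19Phe CDK9 (SE 0.0456, adjusted p = 5.17e-12). The direct contrasts of Tyr19Phe CDK9 with inhibitor-treated cells were -0.95 for AKR1C1, -0.79 for AKR1C3 and -0.83 for UGDH, each with an adjusted p of 2.51e-12 or less. AKR1B1, the polyol pathway reductase, fell by 0.48 with Tyr19Phe CDK9 (SE 0.0375, adjusted p = 2.07e-11). UGT1A6, a glucuronosyltransferase that shares exons with the other UGT1A genes, fell by 1.80 (SE 0.0947, adjusted p = 1.43e-15).

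In heme and iron handling, 4 of 22 tested genes were called lower and 1 higher with Tyr19Phe CDK9, which is 18.2% and 4.55% beside 10.4% and 7.61% of all tested genes. With the inhibitor 0 were called in either direction, beside 1.82% of all tested genes called higher and 2.73% lower. FTL, the light chain of the iron store ferritin, had 1290, 1353 and 1363 CPM in WT CDK9 cells and 948, 957 and 917 CPM in Tyr19Phe CDK9 cells, without overlap. FTL fell by 0.51 on the log2 scale (SE 0.0341, adjusted p = 5.79e-13 by edgeR's quasi-likelihood test), as HMOX1 rose in the same libraries. With the inhibitor FTL was not called (0.10, SE 0.034, adjusted p = 0.0767), but it was called higher in 7 of the 20 alternative fits, among them DESeq2 (adjusted p = 0.0144), scaling by library size alone (adjusted p = 0.019), the replicate block (adjusted p = 0.0473), the trend of GC content and length removed (adjusted p = 0.0119) and the fit without inhibitor replicate 1 (adjusted p = 0.0324). SLC48A1, a heme transporter, fell by 0.46 (SE 0.0688, adjusted p = 6.52e-06). TFRC, the transferrin receptor that imports iron, fell by 0.17 (SE 0.0426, adjusted p = 0.00475), a call lost with the trend of GC content and length removed (adjusted p = 0.0927).

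Among the 21 tested genes of enzymes that supply NADPH, the reductant used by NQO1, GSR and TXNRD1, 7 were called lower and 2 higher with Tyr19Phe CDK9, which is 33.3% and 9.52% beside 10.4% and 7.61% of all tested genes. PGD, the phosphogluconate dehydrogenase, had 176, 188 and 189 CPM in WT CDK9 cells and 137, 148 and 138 CPM in Tyr19Phe CDK9 cells, without overlap. Its log2 fold change was -0.38 (SE 0.0485, adjusted p = 3.60e-07 by edgeR's quasi-likelihood test). IDH1, the cytosolic isocitrate dehydrogenase, rose by 0.38 (SE 0.0722, adjusted p = 1.91e-04). With the inhibitor 0 of the 21 tested genes of this role were called in either direction, beside 1.82% of all tested genes called higher and 2.73% lower.

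Of the 15 other regulators, 3 were called lower and 1 higher with Tyr19Phe CDK9, beside 10.4% and 7.61% of all tested genes. With the inhibitor 0 of the regulators were called by edgeR's quasi-likelihood test, beside 1.82% of all tested genes called higher and 2.73% lower. BACH1, a repressor that competes with NRF2 at antioxidant response elements and is best known for holding HMOX1 down, had 50.5, 50.4 and 49.1 CPM in WT CDK9 cells, 45.7, 46.5 and 47.5 CPM with the inhibitor and 42.5, 36.9 and 39.4 CPM in Tyr19Phe CDK9 cells, without overlap among groups. With Tyr19Phe CDK9 its log2 value fell by 0.34 (SE 0.0784, adjusted p = 0.00213 by edgeR's quasi-likelihood test) and with the inhibitor it changed by -0.10 (SE 0.079, adjusted p = 0.622). TRIM21, a ubiquitin ligase, rose by 0.46 (SE 0.14, adjusted p = 0.0181), a call lost without WT replicate 1 (adjusted p = 0.0628) or Tyr19Phe replicate 1 (adjusted p = 0.075). GSK3B, a kinase that marks NRF2 for degradation independently of KEAP1, fell by 0.18 (SE 0.0566, adjusted p = 0.0201). The GSK3B call was lost without WT replicate 2 (adjusted p = 0.207) or Tyr19Phe replicate 3 (adjusted p = 0.104), and with the trend of GC content and length removed (adjusted p = 0.131).

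The other thioredoxin genes had 3 calls in each direction among 21 tested with Tyr19Phe CDK9, which is 14.3% each way beside 7.61% of all tested genes called higher and 10.4% lower. With the inhibitor they had 1 in each direction, which is 4.76% each way beside 1.82% and 2.73%. TXNIP, which binds and inhibits thioredoxin, had 160, 167 and 180 CPM in WT CDK9 cells, 218, 217 and 224 CPM with the inhibitor and 138, 139 and 132 CPM in Tyr19Phe CDK9 cells. It rose with the inhibitor by 0.38 on the log2 scale (SE 0.0487, adjusted p = 1.80e-06 by edgeR's quasi-likelihood test) and fell with Tyr19Phe CDK9 by 0.31 (SE 0.0489, adjusted p = 1.66e-05). The direct contrast was -0.69 (SE 0.0486, adjusted p = 1.37e-12). NXN, a thioredoxin-like protein, fell by 0.35 with the inhibitor (SE 0.0747, adjusted p = 0.00276) and by 0.23 with Tyr19Phe CDK9 (SE 0.0732, adjusted p = 0.0261). The second NXN call was lost with scaling by library size alone (adjusted p = 0.051) and without WT replicate 2 or 3 or any 1 of the Tyr19Phe replicates (adjusted p up to 0.149). PRDX2 fell by 0.19 with Tyr19Phe CDK9 (SE 0.0548, adjusted p = 0.0152) and MSRA, a methionine sulfoxide reductase, rose by 0.72 (SE 0.221, adjusted p = 0.0192). PRDX2 was not called without WT replicate 2 or 3 or Tyr19Phe replicate 3 (adjusted p up to 0.0952), nor MSRA without WT replicate 3 or Tyr19Phe replicate 3 (adjusted p up to 0.0938).

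Of 7 scavengers, 6 efflux pumps and 6 remaining targets tested, 2, 3 and 1 were called lower with Tyr19Phe CDK9 and 0 higher, beside 10.4% and 7.61% of all tested genes. SOD1, the cytosolic superoxide dismutase, fell by 0.20 on the log2 scale (SE 0.0515, adjusted p = 0.00542 by edgeR's quasi-likelihood test), lost without WT replicate 2 (adjusted p = 0.069) or Tyr19Phe replicate 1 (adjusted p = 0.0676). PARK7 fell by 0.16 (SE 0.0536, adjusted p = 0.0353) with overlapping groups, and its call was lost with scaling by the upper quartile (adjusted p = 0.0725) or by library size alone (adjusted p = 0.0857), and without any 1 of the WT replicates or Tyr19Phe replicate 1 or 3 (adjusted p up to 0.212). Among 6 tested efflux pumps, which export glutathione conjugates and drugs, ABCC1 fell by 0.27 (SE 0.0522, adjusted p = 2.92e-04), ABCC4 by 0.23 (SE 0.0688, adjusted p = 0.0144) and ABCC3 by 0.21 (SE 0.0683, adjusted p = 0.0307). ABCC4 was not called without WT replicate 1 or 3 or Tyr19Phe replicate 2 (adjusted p up to 0.124). ABCC3 was called higher with the inhibitor (0.24, SE 0.0684, adjusted p = 0.0375), but not without WT replicate 2 or 3 or any 1 of the inhibitor replicates (adjusted p up to 0.154). Its decrease with Tyr19Phe CDK9 was not called without WT replicate 1 or 3 or Tyr19Phe replicate 1 or 3 (adjusted p up to 0.21), nor with scaling by the upper quartile (adjusted p = 0.0566) or by library size (adjusted p = 0.0634), nor with the trend of GC content and length removed (adjusted p = 0.0534). POMP, an assembly factor of the proteasome, fell by 0.26 (SE 0.0578, adjusted p = 0.00107) and was 1 of 6 tested genes in the remaining list.

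Profiles over the 9 libraries were compared by Pearson's correlation of log2 CPM among the 9488 protein-coding genes that averaged 10 CPM or more. The genes most like NFE2L2 were TDG (r = 0.978), GTF2IRD1 (0.971), SEC63 (0.96), SPATS2 (0.952) and DSC2 (0.951). Those most like HMOX1 were PML (r = 0.99), TSFM (0.99), NT5E (0.976), NAGK (0.969) and DPAGT1 (0.967). NT5E, the ectonucleotidase CD73, changed by 0.50 (log2) with the inhibitor and by 0.88 with Tyr19Phe CDK9, closest in size to HMOX1 among these. Since the libraries fall into 3 groups and were scaled together, these values mostly follow the group means and are given as a description.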

How the data were processed

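RNA of SKOV3 cells was sequenced by a company in 9 libraries. The submitters' processing notes name CASAVA, HISAT2 2.0.5, featureCounts 1.5.0-p3 and hg38; strandedness and annotation are not given in the sources used here, so reads of genes that overlap on opposite strands may not be separated. The deposited values are raw read counts per gene, which the authors did not normalize. The fit was made with edgeR 4.0.16 under R 4.3.3 (filterByExpr with a minimum count of 10 and a total of 15, TMM scaling, and glmQLFit and glmQLFTest on all 9 libraries with 1 mean per group and 6 residual degrees of freedom). P-values were adjusted by the Benjamini-Hochberg method over 16350 tested genes and called under 0.05. Log2 CPM used a prior count of 2, and CPM per kb used the gene length of the deposited table. Exact permutation of 3 libraries against 3 allows no two-sided p under 0.1 and was not used. The code was tested on simulated counts. DESeq2 1.42.0 was an alternative.

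Named were all 10 members, up to 3 other genes per role of lowest adjusted p among the calls of each comparison with WT CDK9, and the 5 genes most like NFE2L2 and HMOX1 in profile; genes named as overlapping or as copies were chosen after their values were seen. A gene that this rule selects is not reported here. The members and lists were chosen with earlier results of these data known. Replicate numbers were not used as pairs, since same-numbered libraries did not deviate together (correlations from -0.0116 to 0.026). Replicates were not duplicates: their squared differences, averaged over genes, were at least 4.23 times those expected from counting error alone (chi-square). Promoter sequences and starts came from RefSeq and the hg38 genome.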

Additional observations from a re-analysis of the deposited data

How the results depend on the processing

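Each comparison was refitted under 20 alternatives: 3 other scalings, DESeq2, other filters, protein-coding genes only, the compared groups only, a replicate block, each library left out in turn and, chosen after seeing the data, removal of a trend with GC content and gene length, alone and with the block. No called change reversed its direction. Outside the fits that left out a library, the number of members called changed as follows. In Tyr19Phe CDK9 minus WT CDK9 cells 2 members were called higher, GCLM joining HMOX1, with scaling by library size alone, with the trend removed and with the trend removed under the replicate block. In Tyr19Phe CDK9 minus inhibitor-treated cells 1 was called higher with the trend removed, with and without the replicate block, and 6 were called lower, TXN joining, with the trend removed under the block. The replicate block alone changed no call of a member, and with it 38 other pathway genes were called lower and 9 higher with Tyr19Phe CDK9. The number of other pathway genes called lower there was 36 in the main fit, 29 with scaling by the upper quartile and 28 with scaling by library size alone. Over all tested genes the number called lower was 1695, 1483 and 1451 in the same order. The number called higher over all tested genes was 1245, 1474 and 1544. The cause of these changes was not tested.

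With 1 library left out, the members called higher with the inhibitor numbered 0 to 1, and over all tested genes between 293 and 434 were called lower, the lowest without WT replicate 1. With Tyr19Phe CDK9 against WT CDK9, 1 to 2 members were called higher and 3 to 4 lower. Of the other pathway genes, 4 to 11 were called higher there and 27 to 35 lower. Over all tested genes, 887 to 1355 were called higher and 1293 to 1683 lower in the same fits. Against inhibitor-treated cells, 1 to 2 members were called higher, 3 to 6 lower, and 7 to 11 other pathway genes higher and 24 to 29 lower. The calls of KEAP1 and GCLC against inhibitor-treated cells were each lost on leaving out any 1 of several libraries. SRXN1 and HMOX1, with 181 to 731 counts per library, have the widest intervals.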
